A study of Homo sapiens with 12 samples.

Results

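Kinesin genes were followed in mouse xenografts of H3122, a lung adenocarcinoma line of human origin with an EML4-ALK fusion. The set held every gene on the array whose symbol is KIF or KIFC followed by a number, with or without a further letter, which gave 41 of the 20046 genes with a probe of 1 symbol, on 57 probes. Of these 41 genes, 28 were detected on at least 2 of the 12 arrays (detection p under 0.01) and were tested among 12300 genes. They were sorted by hand, by main role, into 13 mitotic motors, 17 transport motors and 11 others, of which 11, 11 and 6 were tested.

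The study compared 2 control tumours with tumours from mice given ceritinib, an inhibitor of the ALK kinase, at 75 mg/kg (4 tumours), 87.5 mg/kg (3) or 100 mg/kg (3). Treatment began once tumours had formed, and the treated tumours shrank at first and were derived as resistant ones, per the study's description. Drug exposure and acquired resistance therefore cannot be told apart in any difference below. All 12 tumours share the same cell line. The sources used here do not give what the control mice received, the mouse strain, or which tumours shared a mouse, if any. P-values therefore measure only the spread between these tumours. A tumour of this kind also holds cells of the mouse host, and the array's probes are for human genes.

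Kinesins are motor proteins that turn the energy of ATP into movement along microtubules. Mitotic kinesins build and elongate the spindle, move and align chromosomes, and organise the midzone and midbody at which daughter cells separate. Most of them are made mainly in dividing cells, late in the cell cycle. Transport kinesins carry vesicles, organelles, RNA and proteins through the cytoplasm, and several of them are known mainly from neurons. Others shorten microtubules or act in cilia.

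Between 38% and 41.2% of the 47323 probes were detected per tumour, and pairs of arrays correlated at 0.94 to 0.99 over the tested genes. The first principal component (41.9% of the variance) separated the controls from the treated tumours. On the second, 87.5 mg/kg replicate 2 had a score of 39.7 and the other tumours scores of -25.9 to 18.9. Kinesin calls that changed without that tumour are given with the value they then took. All 9 lung adenocarcinoma markers listed for a check of the label were detected, KRT18 in both controls but in only 1 treated tumour. In treated tumours 1 of the 9 rose and 3 fell, while 9.88% of all tested genes rose and 8.97% fell. NKX2-1 rose (log2 difference 0.71, limma adjusted p = 0.008). KRT7 (-1.01, 0.00194), CDH1 (-0.60, 0.00686) and KRT19 (-0.64, 0.0106) fell. Of these calls, only that of KRT7 was kept without control replicate 1, which leaves 1 control.

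Of the mitotic kinesins, 5 of 11 were called lower in the treated tumours and the other 6 did not pass. Over all classes 7 of the 28 tested kinesins passed for treated against control, while 18.8% of all tested genes did. Among the 7, KIF5C and KIF19 passed the detection filter only through treated tumours. The 5 falls and 0 rises (limma, Benjamini-Hochberg adjusted p under 0.05) stand beside all tested genes, of which 8.97% of all tested genes fell and 9.88% rose. The median log2 difference of the 11, the mean of the 3 dose groups minus the control mean, was -0.58, against 0.02 for all tested genes, and 10 of the 11 differences were below 0. The 5 genes were KIF20A, KIF18A, KIF14, KIFC1 and KIF23. In bulk tumour RNA, fewer dividing cells and less kinesin RNA per cell cannot be told apart. All 5 calls were lost without control replicate 1, which had the higher level of each. That fit leaves 1 control, and fewer of all tested genes passed in it. The mitotic median was then -0.43, against 0.02 for all tested genes. Relative to the control mean, the mitotic median was 0.28 in control replicate 1 and -0.28 in control replicate 2. The transport medians of these controls were 0.05 and -0.05. Whether the loss of calls is particular to mitotic kinesins was not tested.

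**Figure D1:**
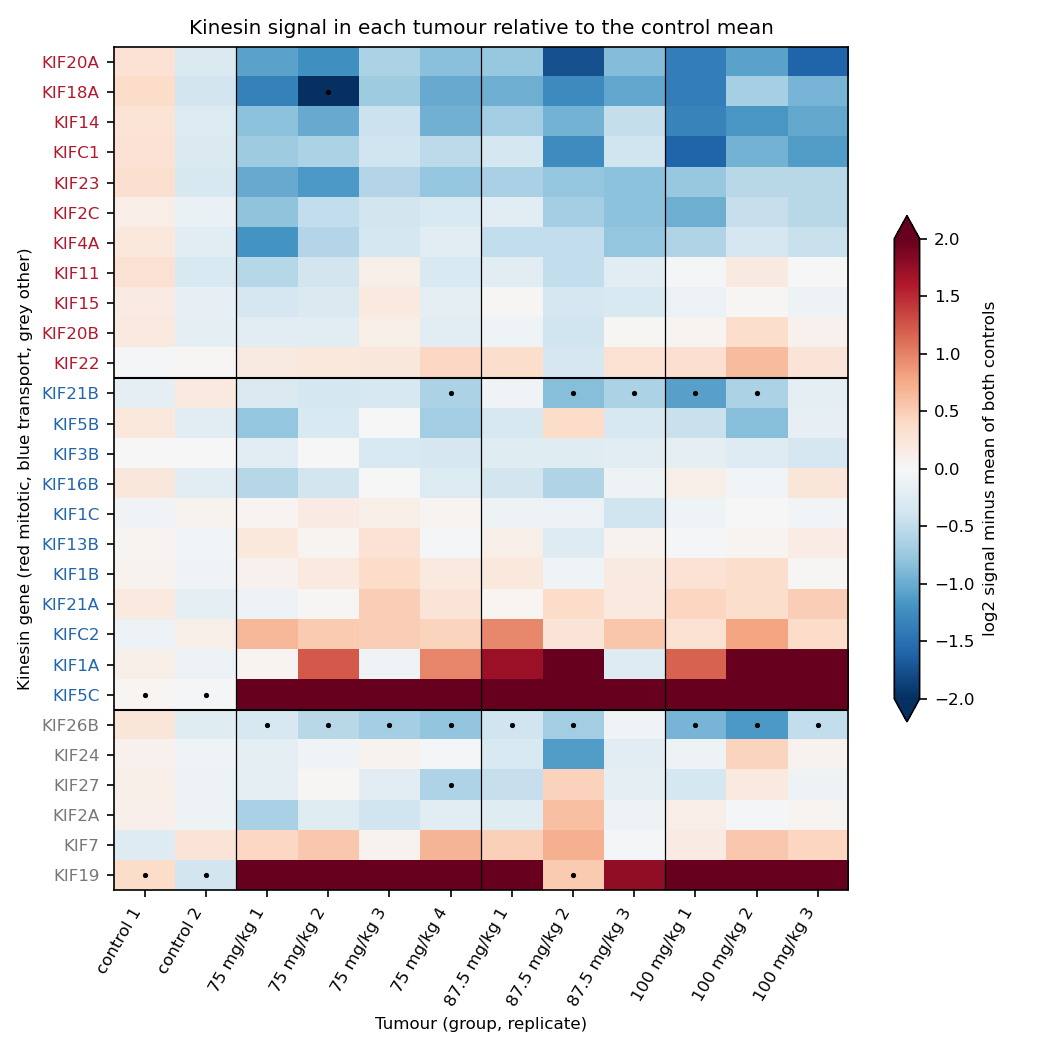
Log2 signal of each tested kinesin gene (rows, grouped as mitotic, transport and other) in each tumour (columns), minus the mean of both controls. Colours end at 2 in either direction, and dots mark tumours in which the gene was not detected. Blue fills the upper mitotic rows in the treated tumours, while KIF5C and KIF19 are at the red end of the scale in most of them.

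Promoter sequences are shown for the 5 mitotic kinesins that fell and for KIF11 and KIF22, mitotic kinesins that did not pass the test, so that the letters can be compared. Many genes transcribed late in the cell cycle carry a CHR (cell cycle genes homology region), the site of the DREAM and MYB-MuvB complexes, and a CCAAT box, the site of NF-Y. The motifs searched were TTTGAA, its reverse complement TTCAAA, and TTCGAA (CHR), and CCAAT with its reverse complement ATTGG. Both strands were searched from 250 bases before to 50 after each transcript start of the RefSeq table (GRCh38.p14), which held 33 of the 41 genes. The sequences run 5′ to 3′ on the gene's strand from 120 bases before the start to 20 bases after it, and capitals mark these motifs.
KIF20A, chr5:138178992-138179131, plus strand: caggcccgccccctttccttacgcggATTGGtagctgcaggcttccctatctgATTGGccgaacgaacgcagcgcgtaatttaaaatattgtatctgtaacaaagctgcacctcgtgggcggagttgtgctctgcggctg
KIF18A, chr11:28108137-28108276, minus strand: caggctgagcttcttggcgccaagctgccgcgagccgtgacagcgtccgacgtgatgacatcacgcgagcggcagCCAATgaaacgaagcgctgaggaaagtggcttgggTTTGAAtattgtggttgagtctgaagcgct
KIF14, chr1:200620732-200620871, minus strand: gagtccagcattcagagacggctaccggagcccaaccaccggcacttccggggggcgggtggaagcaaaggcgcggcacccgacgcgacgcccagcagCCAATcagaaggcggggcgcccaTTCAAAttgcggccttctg
KIFC1, chr6:33391703-33391842, plus strand: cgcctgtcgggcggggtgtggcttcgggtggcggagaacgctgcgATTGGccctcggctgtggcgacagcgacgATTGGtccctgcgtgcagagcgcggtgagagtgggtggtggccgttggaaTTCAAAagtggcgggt
KIF23, chr15:69414229-69414368, plus strand: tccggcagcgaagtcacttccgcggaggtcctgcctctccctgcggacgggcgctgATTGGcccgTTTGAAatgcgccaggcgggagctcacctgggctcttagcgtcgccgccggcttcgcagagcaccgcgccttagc
KIF11, chr10:92593010-92593149, plus strand: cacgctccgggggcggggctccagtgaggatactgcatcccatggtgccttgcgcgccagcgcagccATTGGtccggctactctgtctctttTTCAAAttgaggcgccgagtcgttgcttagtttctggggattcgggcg
KIF22, chr16:29790631-29790770, plus strand: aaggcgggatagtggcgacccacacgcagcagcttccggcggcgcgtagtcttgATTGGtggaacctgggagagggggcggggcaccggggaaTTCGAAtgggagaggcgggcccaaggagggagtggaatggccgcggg

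A CHR match was present for 10 of the 13 mitotic kinesins (76.9%), 1 of 12 transport kinesins (8.33%, KIF5B) and 1 of 8 others (12.5%, KIF24), against 19.5% of the 27305 genes and 16.4% of the 35116 windows in the table. A CCAAT match was present for 10 of 13 mitotic (76.9%), 4 of 12 transport (33.3%) and 3 of 8 other kinesins (37.5%), against 39.7% of genes and 34.6% of windows. The 9 mitotic kinesins with both had motif starts 9 to 122 bases apart, with no overlap. KIF23 had the shortest distance, with ATTGG at position -64 and TTTGAA at -55 from its transcript start. KIF20A, which had the largest fall, held CCAAT matches at -94 and -67 and no CHR match in the window. KIF11 and KIF22, whose differences did not pass the test, held both motifs, so these letters did not separate the mitotic kinesins that fell from those that did not pass. A match describes the letters only and shows no binding. The table did not hold KIF13B, KIF27, KIFC3, KIFC2, KIF5A, KIF19, KIF26B and KIF21B.

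The midzone and midbody motors KIF20A, KIF23 and KIF14 act in cytokinesis. KIF20A carries the chromosomal passenger complex to the midzone. Its log2 signal was 11.83 and 11.26 in the controls, 10.48, 10.32, 10.91 and 10.72 at 75 mg/kg, 10.78, 9.79 and 10.69 at 87.5 mg/kg, and 10.17, 10.48 and 9.94 at 100 mg/kg. All 10 treated tumours were below both controls, and 87.5 mg/kg replicate 2 was the lowest. KIF20A fell by 1.14 on the log2 scale (SE 0.26, 2.20-fold, limma adjusted p = 0.0105, and 0.180 without control replicate 1).

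KIF14 localises to the midbody and is needed for the final cut between daughter cells. It was at 9.65 and 9.10 in the controls, 8.55, 8.36, 8.94 and 8.42 at 75 mg/kg, 8.69, 8.43 and 8.89 at 87.5 mg/kg, and 8.03, 8.22 and 8.36 at 100 mg/kg. No treated tumour reached either control, and the 3 tumours at 100 mg/kg were below the other 7 treated tumours, as were those of 2.93% of all tested genes. KIF14 fell by 0.90 (SE 0.19, 1.86-fold, limma adjusted p = 0.00681).

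KIF23 is the motor subunit of centralspindlin, which bundles the midzone together with RACGAP1. The probe used for it read 10.76 and 10.12 in the controls, 9.43, 9.29, 9.85 and 9.67 at 75 mg/kg, 9.79, 9.66 and 9.62 at 87.5 mg/kg, and 9.67, 9.89 and 9.88 at 100 mg/kg. The groups did not overlap. KIF23 fell by 0.75 (SE 0.17, 1.68-fold, limma adjusted p = 0.0115, and 0.241 without control replicate 1). A second probe of KIF23 did not pass when each detected probe was tested alone, as 16.3% of 20889 probes did (log2 difference -0.42, SE 0.18, limma adjusted p = 0.133), so the call of KIF23 depends on the probe. KIF20B also acts in cytokinesis; its log2 difference was -0.04 (SE 0.15, limma adjusted p = 0.876), with treated tumours from 9.64 to 10.39 around controls at 10.24 and 9.86.

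Among the motors that act on chromosomes and kinetochore microtubules, KIF18A, which damps chromosome oscillation at the metaphase plate, fell. Its signal was 8.29 and 7.55 in the controls, 6.56, 5.89, 7.201 and 6.92 at 75 mg/kg, 6.94, 6.65 and 6.88 at 87.5 mg/kg, and 6.53, 7.25 and 6.99 at 100 mg/kg. All treated tumours were below both controls, and KIF18A was not detected in 75 mg/kg replicate 2. It fell by 1.12 (SE 0.30, 2.18-fold, limma adjusted p = 0.0238, and 0.307 without control replicate 1).

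KIF2C, a microtubule depolymerase that corrects faulty kinetochore attachments, narrowly missed the threshold (log2 difference -0.58, SE 0.19, limma adjusted p = 0.0519), although its treated tumours (8.72 to 9.47, median 9.17) all lay below both controls (9.82 and 9.57). It passed in 8 of 22 alternative analyses. KIF4A, which sets the length of the midzone and binds chromosome arms, differed by -0.54 (SE 0.22, limma adjusted p = 0.107), with treated tumours from 7.62 to 8.61, 9 of 10 of them below both controls (9.03 and 8.61). Its near-identical copy KIF4B was detected on no array, and whether the KIF4A probe also reads KIF4B was not tested. KIF22, a motor that pushes chromosome arms outward, was the only mitotic kinesin with a difference above 0 (0.26, SE 0.17, adjusted p = 0.313), with treated tumours from 11.18 to 12.14, 9 of 10 of them above both controls (11.48 and 11.54).

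Of the motors that shape the spindle, KIFC1, a minus-end-directed motor that focuses spindle poles and clusters extra centrosomes, fell. It was at 10.59 and 10.003 in the controls, 9.58, 9.66, 9.90 and 9.77 at 75 mg/kg, 9.94, 9.03 and 9.90 at 87.5 mg/kg, and 8.69, 9.35 and 9.19 at 100 mg/kg. The groups did not overlap, but 87.5 mg/kg replicate 1 came close to control replicate 2. KIFC1 fell by 0.82 (SE 0.24, 1.77-fold, limma adjusted p = 0.0379), and this call was lost in 8 of 22 alternatives.

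KIF11, which pushes spindle poles apart and is the target of antimitotic inhibitors, differed by -0.18 (SE 0.18, 95% interval -0.58 to 0.22, limma adjusted p = 0.53). Its treated tumours ranged from 9.53 to 10.28, with a median of 9.88, around controls at 10.40 and 9.80. KIF15, which can take over from KIF11, had a difference of -0.14 (SE 0.15, adjusted p = 0.564), with controls at 8.60 and 8.28 and treated tumours from 8.11 to 8.64. The mitotic kinesins thus ran from falls of more than 1 log2 unit in KIF20A and KIF18A to intervals that include 0 in KIF11, KIF15, KIF20B and KIF22. KIF2B, a mitotic depolymerase, was detected on no array.

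**Figure D2:**
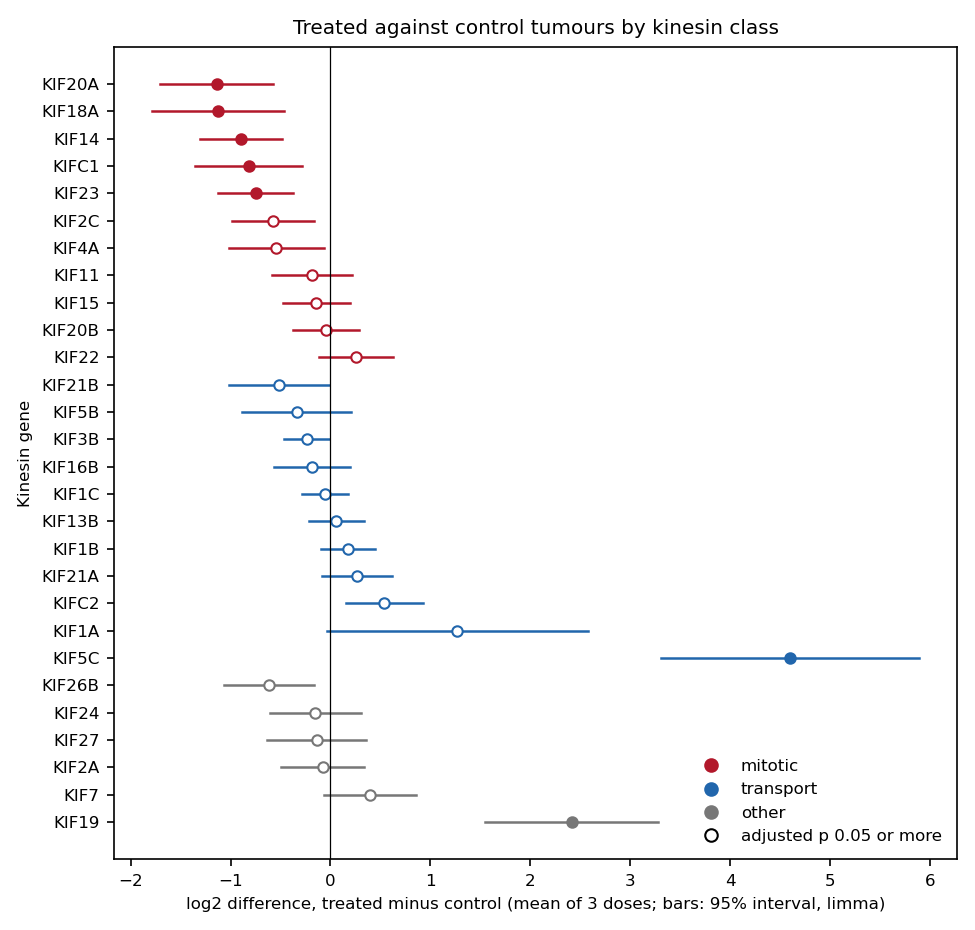
Log2 difference between treated and control tumours (mean of the 3 dose groups minus control) for the 28 tested kinesin genes, with 95% intervals from limma. Filled points passed an adjusted p of 0.05. The 5 filled mitotic points are all below 0, and KIF5C and KIF19 are the filled points above 0.

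Partners of these motors were read from a list of 22 spindle and midzone genes, beside all tested genes, of which 8.97% fell and 9.88% rose. Of the 22, 8 fell and 0 rose, with a median log2 difference of -0.51. Those with the smallest p were ANLN, a scaffold of the cleavage furrow (fell by 1.03, SE 0.17, limma adjusted p = 0.00216), PLK1, a mitotic kinase (fell by 0.96), BUB1B, a spindle checkpoint kinase (fell by 0.67), and RACGAP1, the partner of KIF23 in centralspindlin (fell by 0.58). CENPE, a kinetochore kinesin outside the symbol rule, had a difference of -0.60 (adjusted p = 0.0526). The proliferation marker MKI67 had a difference of -0.43 (SE 0.22, adjusted p = 0.191), with controls at 8.70 and 8.51 and treated tumours from 7.61 in 87.5 mg/kg replicate 2 to 8.65 in 87.5 mg/kg replicate 1. The part of a change in dividing cells in the kinesin differences was not tested. Without control replicate 1, which leaves 1 control, the median of the 22 partners was -0.33. Their calls were then lost, while fewer of all tested genes passed too. Without 87.5 mg/kg replicate 2, NUMA1, a spindle pole protein, rose.

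The 10 tested regulators of late cell cycle transcription had a median difference of -0.08. Beside 9.88% of all tested genes that rose and 8.97% that fell, 2 of the 10 rose and 0 fell. These were RBL2, the pocket protein of the DREAM repressor complex (log2 difference 0.58, SE 0.16, limma adjusted p = 0.0249), and LIN37, a subunit of its core (0.40, SE 0.12, adjusted p = 0.037). RBL2 lost its call in 5 of 22 alternatives, which include leaving out either control (0.0669 and 0.248) and arrays scaled to their median (0.106). LIN37 lost its call in 13 of 22 (adjusted p up to 0.436). With the replicate number as a block, or with arrays scaled to their median, 0 of the 10 rose and 1 fell.

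Transport kinesins showed no common direction. Of 11 tested, 1 rose and 0 fell, against 9.88% and 8.97% of all tested genes. Their median log2 difference was 0.06 (5 below 0 and 6 above). With arrays scaled to their median, the transport median changed sign to -0.10, when the median of all genes was -0.11. The gene that rose was KIF5C, a heavy chain of kinesin-1, the motor that carries mitochondria, vesicles and RNA, known mainly from neurons.

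KIF5C was not detected in either control, where it read 5.52 and 5.44, and was detected in all 10 treated tumours. Its signal was 8.58, 9.43, 9.54 and 10.80 at 75 mg/kg, 10.33, 9.89 and 7.81 at 87.5 mg/kg, and 11.62, 11.16 and 11.09 at 100 mg/kg. The 3 tumours at 100 mg/kg were above the other 7 treated tumours, as were those of 4.08% of all tested genes, and 87.5 mg/kg replicate 3 was the lowest. The rise was at least 15.98-fold against the lowest detected signal of each control array, with a fitted log2 difference of 4.60 (SE 0.59, limma adjusted p = 0.000391). KIF5C passed the detection filter only through the treated tumours, where it is high. Its p-values and calls are therefore no support beyond the bound. Leaving out control replicate 1 gave a bound of 17.43-fold and leaving out control replicate 2 a bound of 14.65-fold, and the call was kept in all 22 alternatives.

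KIF5C has 2 sister heavy chains. KIF5B, the heavy chain made in most tissues, was detected in every tumour, with a difference of -0.34 (SE 0.25, adjusted p = 0.371), controls at 9.51 and 9.10 and treated tumours from 8.45 to 9.67. KIF5A, like KIF5C known mainly from neurons, was detected on no array.

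KIF1A, which carries synaptic vesicle precursors in neurons, had the second largest difference among transport motors but did not pass (1.27, SE 0.60, limma adjusted p = 0.164). It read 8.70 and 8.48 in the controls, 8.64, 9.82, 8.53 and 9.57 at 75 mg/kg, 10.32, 11.24 and 8.34 at 87.5 mg/kg, and 9.78, 10.66 and 11.01 at 100 mg/kg. Of the treated tumours, 7 were above both controls and 1, 87.5 mg/kg replicate 3, was below both. That tumour also had the lowest KIF5C. Without it the difference of KIF1A was 1.54 and passed (limma adjusted p = 0.0224). As it held the lowest KIF1A reading, leaving it out raises the difference by construction, so this pass is no support for a rise.

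Markers of neurons were read beside both genes and beside all tested genes, of which 9.88% rose and 8.97% fell. Of 16 listed, 8 were detected on no array (STMN2, SYT1, GAP43, NEFM, INA, ELAVL3, ELAVL4 and RBFOX3). Of the 8 tested, 2 rose and 1 fell: the microtubule-associated proteins MAPT (log2 difference 2.21, SE 0.23, limma adjusted p = 0.000107) and MAP2 (not detected in the controls, at least 2.02-fold, adjusted p = 0.0379), and the tubulin TUBB3 (-0.95, SE 0.23, adjusted p = 0.0152). Their median difference was 0.69. SNAP25, SYP, NEFL and NEFH, like MAP2, were detected in no control and passed the filter only through treated tumours. SNAP25 was at least 1.36-fold higher, while the log2 bounds of SYP (-0.25), NEFL (-0.12) and NEFH (-0.08) were below 0. The median therefore rests in part on control readings below detection. The summed linear signal of the 8 tested markers was 5170 to 5509 in the controls and 2965 to 5873 in the treated tumours. This sum follows mainly TUBB3 and ENO2, with control means of 11.69 and 10.73 on the log2 scale, against 6.71 for MAPT. ENO2 had a difference of -0.46 and did not pass (limma adjusted p = 0.213). The sum therefore says little about the markers of low signal. MAP2 and TUBB3, the latter also on the list of tubulins, lost their calls without either control, and MAPT kept its call in all 22 alternatives. The part of neuron-like cells in the KIF5C and KIF1A values was not tested.

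**Figure D3:**
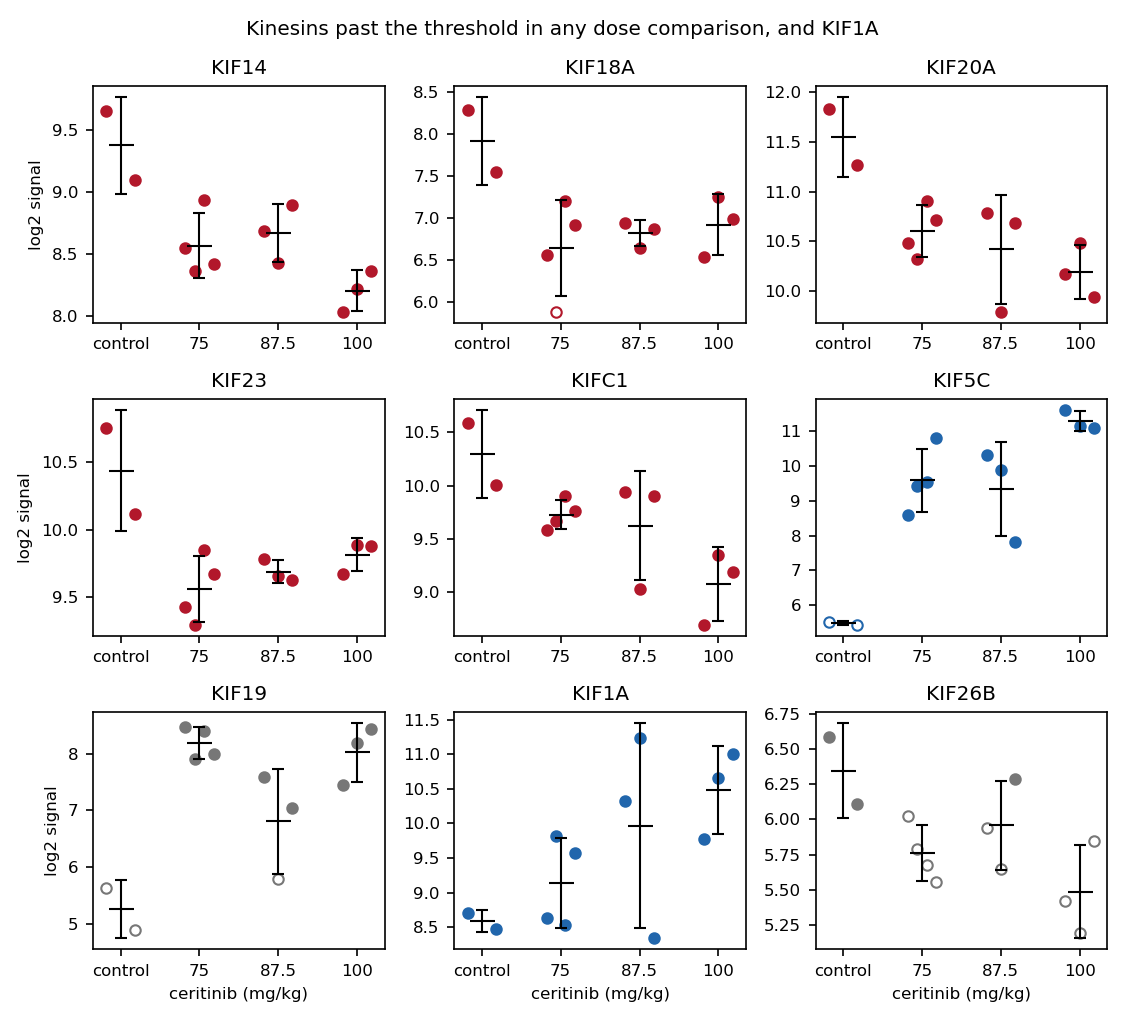
Log2 signal per tumour by dose for the kinesins past the threshold in any comparison of dose or treatment with control, and for KIF1A. Points are tumours (open where not detected), and bars are the group mean and SD. KIF5C is open in the controls and highest at 100 mg/kg, KIF1A spreads from 8.34 to 11.24 in the treated tumours, and the 5 mitotic genes are highest in the controls.

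No other transport kinesin passed. KIFC2, a minus-end-directed motor described in mouse neurons, had a difference of 0.54 (SE 0.18, limma adjusted p = 0.0544), with every treated tumour (10.62 to 11.33, median 10.87) above both controls (10.25 and 10.48). Without 87.5 mg/kg replicate 2 it was 0.59 higher and passed (0.0193), as it did at 87.5 mg/kg (0.76, adjusted p = 0.0423). That tumour had the lowest KIFC2 of the treated tumours, so leaving it out raises the difference by construction. KIF3B, a kinesin-2 motor of vesicles and of transport within cilia, had a difference of -0.24 (SE 0.10, adjusted p = 0.135), with treated tumours from 9.98 to 10.31 just below controls at 10.32 and 10.33. Over all 28 kinesins, the treated tumours were all below both controls for 7 genes and all above for 3, against 11% and 11.5% of all tested genes.

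KIF21B, a motor that also restrains microtubule growth, had a difference of -0.52 (SE 0.23, adjusted p = 0.143), with controls at 6.53 and 6.91 and treated tumours from 5.64 to 6.65, and was not detected in 5 treated tumours. KIF16B, a motor of early endosomes, differed by -0.19, with controls at 9.53 and 9.07 and treated tumours from 8.70 to 9.54. KIF1C, a fast vesicle motor, differed by -0.05 (controls 8.19 and 8.34, treated tumours 7.87 to 8.42). KIF13B differed by 0.06 (controls 10.03 and 9.93, treated tumours 9.73 to 10.27). None of these passed, and in each the groups overlapped. The gene-level values of KIF1B differed by 0.18 (controls 11.77 and 11.63, treated tumours 11.61 to 12.06), and those of KIF21A, a relative of KIF21B, by 0.26 (controls 9.78 and 9.40, treated tumours 9.47 to 10.09). Neither passed. KIF3A, the partner of KIF3B, was detected in 1 control alone, and KIF3C, KIF13A, KIF17 and KIFC3 were detected on no array.

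The 3 probes of KIF1B, a motor of mitochondria and synaptic vesicle precursors, disagreed at the highest dose. When each detected probe was tested alone (20% of 20889 probes passed at 100 mg/kg), ILMN_1659444 fell by 1.12 (SE 0.32, limma adjusted p = 0.0306). It read 7.35 and 7.12 in the controls and 6.35, 5.60 and 6.41 at 100 mg/kg, where it was not detected in replicate 2. The 3 tumours at 100 mg/kg had its lowest readings of all 12. In the same comparison ILMN_1735552, the probe that stood for KIF1B, differed by 0.22 and ILMN_1743034 by -0.05, and neither passed. The platform annotation places ILMN_1659444 and ILMN_1735552 on the same RefSeq transcript and ILMN_1743034 on another.

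**Figure D4:**
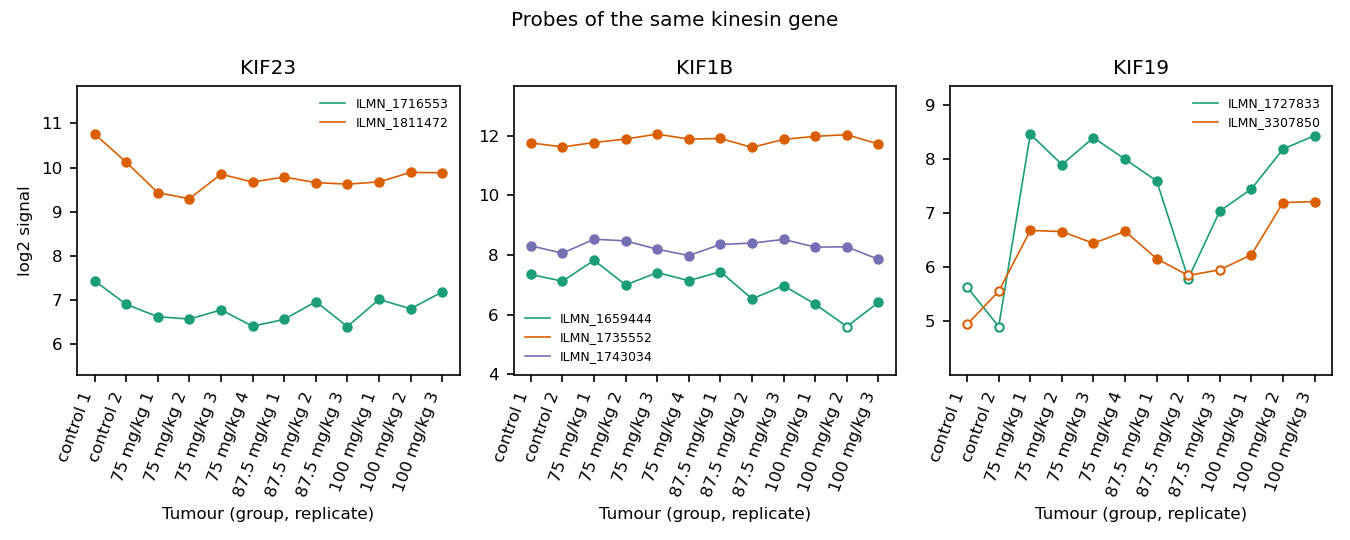
Log2 signal per tumour of each detected probe of KIF23, KIF1B and KIF19 (open where not detected), with probe identifiers in the keys. The KIF1B probe ILMN_1659444 is lowest in the 100 mg/kg tumours while the other KIF1B probes did not pass the test, and both KIF19 probes are open in the controls.

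Cargo adaptors and light chains were counted in the same way. Of 13 tested, with a median difference of 0.06, 1 rose and 1 fell, against 9.88% and 8.97% of all tested genes. KLC3, a light chain of kinesin-1, rose from undetected in both controls by at least 1.41-fold (limma adjusted p = 0.00395). It passed the detection filter only through treated tumours, and its call was lost without control replicate 1. KIFAP3, the adaptor of the KIF3 motors, fell by 0.35 (SE 0.11, adjusted p = 0.0479), and this call was lost in 13 of 22 alternatives, with adjusted p up to 0.415 without control replicate 1. KIFBP, which inhibits several kinesins by binding their motor domain, had a difference of -0.13 (adjusted p = 0.643).

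The opposing motor, dynein, moves toward microtubule minus ends. Of 19 tested dynein and dynactin genes, DCTN2 rose (0.33, SE 0.09, limma adjusted p = 0.0285) and DYNLL1 fell (by 0.54, SE 0.14, adjusted p = 0.0246), with a median difference of 0.07. The shares over all tested genes, for this list and the tubulins, were 9.88% higher and 8.97% lower. Of 11 tubulins, TUBB3 and TUBB fell (TUBB by 0.49, SE 0.15, adjusted p = 0.0439) and 0 rose, with a median of -0.21. None of these calls remained without control replicate 1.

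Among the other kinesins, KIF19 rose. In mouse, KIF19 shortens microtubules at the tips of motile cilia. It was not detected in the controls, where it read 5.63 and 4.89. It was at 8.46, 7.90, 8.40 and 7.997 at 75 mg/kg, 7.59, 5.78 and 7.04 at 87.5 mg/kg, and 7.45, 8.19 and 8.44 at 100 mg/kg. Only 87.5 mg/kg replicate 2 was below detection among the treated tumours. The rise was at least 3.03-fold (fitted log2 difference 2.41, SE 0.39, limma adjusted p = 0.00177), and the call was kept in all 23 alternatives. A second probe of KIF19 was not detected in the controls either and passed when tested alone (1.25, SE 0.24, adjusted p = 0.00477). Both probes passed the detection filter only through treated tumours. Their p-values and calls are therefore no support beyond the bound.

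Markers of ciliated airway cells were read beside KIF19 and beside all tested genes, of which 9.88% rose and 8.97% fell. Of 12 listed, DNAI2 and CCDC39 were detected on no array. Of the 8 tested, 0 rose and 1 fell, FOXJ1, the transcription factor of motile cilia (log2 difference -1.65, SE 0.50, limma adjusted p = 0.0411). This call was lost in 10 of 22 alternatives, which include leaving out either control. Of those that did not pass, DNAI1 (1.30), TEKT1 (0.96), RSPH1 (0.86) and CAPS (0.72) had differences above 0. DNAI1 was not detected in the controls, so its value is better read as at least 1.42-fold higher. SPAG6 (-0.92), DNAH5 (-0.52) and TEKT2 (-0.07) had differences below 0. The median difference of the 8 was 0.32, and their summed linear signal was 1818 to 1873 in the controls and 989.3 to 3735 in the treated tumours. Of 8 tested markers of stroma, endothelium and immune cells, 1 rose and 3 fell (VWF rose, LUM, COL1A1 and COL1A2 fell), with a median difference of 0.28 and summed signals of 5744 to 8420 in the controls and 6402 to 9949 in the treated tumours. Without control replicate 1, 0 of these 8 passed, and without control replicate 2, 2 rose and 0 fell. Without 87.5 mg/kg replicate 2, a ciliated cell marker, CAPS, and an endothelial marker, PECAM1, also rose. The part of these cells in the kinesin results was not tested.

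KIF26B, a kinesin without motor activity that acts in noncanonical Wnt signalling, was at 6.59 and 6.11 in the controls, 6.02, 5.79, 5.67 and 5.55 at 75 mg/kg, 5.94, 5.65 and 6.28 at 87.5 mg/kg, and 5.42, 5.19 and 5.85 at 100 mg/kg. The treated tumours were below both controls except 87.5 mg/kg replicate 3. For treated against control it had a difference of -0.61 (SE 0.20, limma adjusted p = 0.0589) and was detected in both controls and in 1 treated tumour. KIF7, a regulator of Hedgehog signalling at the ciliary tip, had a difference of 0.40 (SE 0.21, adjusted p = 0.217), with controls at 7.49 and 7.99 and treated tumours from 7.70 to 8.45. KIF2A, a microtubule depolymerase, differed by -0.08 (controls 9.77 and 9.58, treated tumours 9.04 to 10.28). Its class is a choice, as the depolymerases KIF2B and KIF2C were counted as mitotic. KIF24, a depolymerase that restrains cilia, differed by -0.15 (controls 8.07 and 7.91, treated tumours 6.87 to 8.43), and KIF27, a relative of KIF7, by -0.14 (controls 6.67 and 6.44, treated tumours 5.94 to 7.01). None of these passed. Tumour 87.5 mg/kg replicate 2 was the highest treated tumour for KIF7, KIF2A and KIF27 and the lowest for KIF24. KIF6, KIF9, KIF12, KIF25 and KIF26A were detected on no array.

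Each dose was then set against the same 2 controls. At 75 mg/kg, 6 kinesins passed (14.5% of all genes did, 7.12% lower and 7.37% higher): KIF14, KIF18A, KIF20A and KIF23 fell, and KIF5C and KIF19 rose. At 87.5 mg/kg, KIF5C alone passed (6.18% of all genes, 2.93% lower and 3.25% higher). At 100 mg/kg, 7 passed (22.1% of all genes, 10.2% lower and 11.9% higher): KIF14, KIF20A, KIF23, KIFC1 and KIF26B fell, and KIF5C and KIF19 rose. Without 87.5 mg/kg replicate 2, which changes the shared spread, KIF1A (1.89, adjusted p = 0.0358) and KIF22 (0.41, 0.047) also passed at 100 mg/kg and KIF23 did not (0.05003). These lists share both controls and are not independent of each other.

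Estimates for the 5 mitotic kinesins were below 0 at every dose, with calls that differed between doses. The log2 difference of KIF20A was -0.94 (SE 0.29, limma adjusted p = 0.0497) at 75 mg/kg, -1.13 (SE 0.30, 0.0516) at 87.5 mg/kg and -1.35 (SE 0.30, 0.00886) at 100 mg/kg. KIF18A was at -1.28, -1.10 and -0.996, with adjusted p-values of 0.0264, 0.094 and 0.0658. KIF23 was at -0.88, -0.75 and -0.62 (0.0115, 0.0532 and 0.0479).

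KIF14 was at -0.81, -0.71 and -1.17 (limma adjusted p = 0.0239, 0.0834 and 0.00324, the last kept in all 23 alternatives), and KIFC1 at -0.57, -0.67 and -1.22 (0.188, 0.205 and 0.0114). The mitotic median was -0.57, -0.59 and -0.62 at the 3 doses. Several calls were marginal: KIF20A at 75 mg/kg was lost in 12 of 23 alternatives and KIF23 at 100 mg/kg in 15. Without control replicate 1, which leaves 1 control, fewer kinesins passed at each dose, and so did fewer of all tested genes.

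KIF5C rose at least 11.41-fold at 75 mg/kg, 9.63-fold at 87.5 mg/kg and 37.11-fold at 100 mg/kg (limma adjusted p = 0.00204, 0.00813 and 0.000226). At 87.5 mg/kg its call was lost without control replicate 1 (0.0663) and when only the groups compared were fitted (0.0769). KIF19 rose at least 4.33-fold at 75 mg/kg and 3.86-fold at 100 mg/kg (0.0014 and 0.00181). At 87.5 mg/kg it was at least 1.66-fold higher and did not pass (0.0754). It passed without 87.5 mg/kg replicate 2 (log2 difference 2.06, adjusted p = 0.0075). That tumour had the lowest KIF19 of the treated tumours, so leaving it out raises the difference by construction. KIF26B was at least 1.19-fold lower at 100 mg/kg, where no tumour detected it (adjusted p = 0.0261, lost in 5 of 22 alternatives).

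Between doses, 0 of the 28 kinesins passed in limma, with 5, 5 and 4 at an unadjusted p under 0.05 for 100 against 75, 100 against 87.5 and 87.5 against 75 mg/kg. Of all tested genes, 0.659%, 0.78% and 0% passed. The smallest p was that of KIF5C for 100 against 75 mg/kg (1.70 higher, SE 0.58, 95% interval 0.43 to 2.97, adjusted p = 0.191) and for 100 against 87.5 mg/kg (1.95 higher, SE 0.62, interval 0.59 to 3.30, adjusted p = 0.159). For 87.5 against 75 mg/kg it was that of KIF19 (-1.38, SE 0.39, interval -2.24 to -0.53, adjusted p = 0.409). KIF14 differed by -0.36 (interval -0.77 to 0.04) between 100 and 75 mg/kg.

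**Figure D5:**
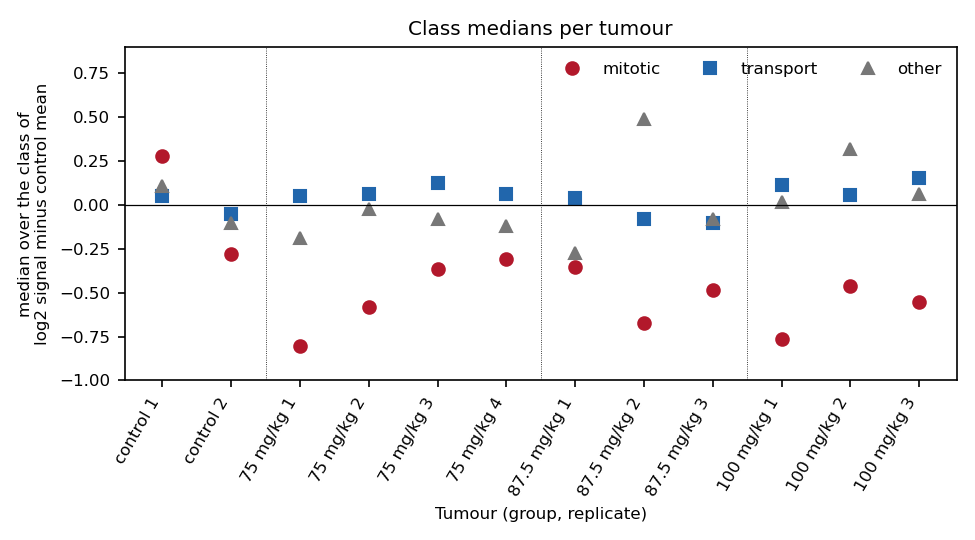
Median over the tested mitotic (circles), transport (squares) and other (triangles) kinesins of the log2 signal minus the control mean, in each tumour. The mitotic medians of the 10 treated tumours lie between -0.80 and -0.31, with the controls at 0.28 and -0.28, and the transport medians lie between -0.10 and 0.15.

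Taken tumour by tumour, the median of the 11 mitotic kinesins relative to the control mean was 0.28 in control replicate 1 and -0.28 in control replicate 2; the gap between the controls was wider than the gap between control replicate 2 and any treated tumour. In treated tumours it ran from -0.31 (75 mg/kg replicate 4) to -0.80 (75 mg/kg replicate 1), and all 10 were below control replicate 2. The transport median stayed between -0.10 and 0.15. Of the mitotic kinesins, 87.5 mg/kg replicate 2 was below both controls for all 11 and was the lowest treated tumour for 4, while it was the lowest for 20.3% of all tested genes. Tumour 100 mg/kg replicate 2 was the highest treated tumour for 5 of 11, against 15.2% of all genes.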

How the data were processed

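RNA of 12 tumours was hybridised to Illumina Expression BeadChips. The authors deposited linear, unnormalized probe intensity values (61.2 to 68257) and, as the file headers show, the matching detection p-values; both kinds of value are used as deposited. The scanner software, slides and batches are not given in the sources used here. Both deposited tables held identical signals in identical order, but their probe identifiers matched at 1 of 47323 positions. Identifiers of the value table were used, since they put GAPDH at a median log2 signal of 14.7 (8.89 with the others).

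Signals were background corrected from the detection p-values (nec, offset 16), then log2 transformed and quantile normalized in limma 3.58.1 (R 4.3.3). A probe needed a detection p under 0.01 on 2 or more arrays (20889 probes), and each of 12300 genes was represented by its probe of highest mean. The 4 groups were fitted together over 12 tumours, with Benjamini-Hochberg adjustment over all tested genes and a threshold of 0.05. For a gene undetected in a whole group, the fold is a lower bound: undetected signals were replaced, where lower, by the lowest detected signal on that array. The fit was tested on simulated data. Figures used matplotlib 3.10.9 (Python 3.11.15, pandas 2.3.3).

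The kinesins, their classes, the gene lists and the tests were chosen with earlier results of these data known. Every kinesin was named: per tumour where past the threshold in any comparison, otherwise by level and difference. Each other list added up to 4 genes past the threshold with the smallest p, plus CENPE, MKI67, KIFAP3 and KIFBP. Per-tumour values for KIF1A, the KIF1B probes, and the names NUMA1, PECAM1, ENO2 and the ciliated cell markers other than FOXJ1 were given beyond that rule after they were seen. The number of arrays limits the precision.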

Additional observations from a re-analysis of the deposited data

Results flagged for a closer look

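KIF20B, a cytokinesis motor, was at a log2 signal of 10.16 in 75 mg/kg replicate 3, while the other 3 tumours at that dose were between 9.83 and 9.84. The gap was 0.944 of the group's range, above the critical value of Dixon's test for 4 samples. It was the only such case among the 28 tested kinesins. Chance gives about 1 in 20 for each gene, so 1 case among 28 genes is not unusual. KIF20B did not pass in any comparison.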

How the results depend on the processing

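With each tumour left out in turn, the kinesins past the threshold numbered 2 to 9 for treated against control (7 with all tumours), 2 to 6 at 75 mg/kg, 0 to 3 at 87.5 mg/kg, 3 to 8 at 100 mg/kg and 0 to 0 between doses. The mitotic kinesins that fell numbered 0 to 6, the mitotic median ran from -0.75 to -0.43 and the transport median from 0.02 to 0.11. The lowest counts came without control replicate 1, when 6.35% of all genes passed against 18.8%. At 75 mg/kg the count was also 3 without 75 mg/kg replicate 1, when 647 of all tested genes rose and 676 fell. Without 87.5 mg/kg replicate 2, the tumour that stood apart, 8 kinesins passed for treated against control (23.2% of all genes). At 87.5 mg/kg 3 then passed, while 535 of all tested genes rose and 430 fell. No called kinesin difference reversed under any alternative run.

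With no normalization between arrays, 11 kinesins passed for treated against control, beside 23.3% of all tested genes. The mitotic median was then -0.81 and the transport median -0.18, as the median of all genes moved from 0.02 to -0.19. The transport median was -0.10 with arrays scaled to their median and -0.048 with the mean of detected probes. Relative to all genes the mitotic median was -0.59 after quantile normalization and -0.62 under both scalings. The share of lower calls among all called genes was 47.6% after quantile normalization, 68% with scaling to the median and 77.3% with none. At 87.5 mg/kg, where 1 kinesin passed, the count was 3 with no background correction, an offset of 50 or a trended and robust spread. It was 4 with arrays scaled to their median or with array weights, 6 with no normalization, 2 with the mean of detected probes and 0 with only the groups compared. Calls over all 12300 genes changed as well. In the main run 400 rose and 360 fell at 87.5 mg/kg. These counts were 399 and 455 with no background correction, 404 and 438 with the offset of 50, and 445 and 403 with the trended spread. They were 288 and 769 with scaled arrays, 731 and 615 with array weights, and 224 and 1123 with no normalization. With the mean of detected probes they were 386 and 379, and with only the groups compared 79 and 78.

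The replicate numbers did not pair the tumours: tumours of different groups with the same number had deviations that correlated at -0.22 to 0.38, with 4 of 15 pairs over 0.1. With the replicate number as a block, 7 kinesins passed for treated against control, 4 of them mitotic, and 2 at 87.5 mg/kg. Of all tested genes, 13.5% passed for treated against control, and at 87.5 mg/kg 274 rose and 227 fell. The tests of single probes and of the genes in the other lists under these alternatives were chosen after seeing the data. With 2 controls, the spread is taken mainly from treated tumours, and levels near the lowest detected signal (KIF18A, KIF19, KIF21B, KIF26B) are imprecise.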
